A study of Mus musculus with 4 samples.

Results

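The genes described here build and run the actin cytoskeleton: the actins, the proteins that bundle, sever and branch their filaments, the myosin that pulls on them, the adhesion and membrane proteins that anchor them, the GTPase genes Rhoa, Rhob, Rhoc, Rac1 and Cdc42, and the transcription factor Srf with the lamin gene Lmna. The list holds 44 genes, taken by name, and 41 of them had at least 1 probe set that carried their symbol alone, of 12394 such genes in the table. These 41 genes had 92 of the 22690 probe sets. Of the 41, 35 were tested, 4 had values at date 2 only and 2 were too dim to be tested. The cells were YAMC, an epithelial line from the colon of young adult mice that is conditionally immortalised, known to carry a heat-labile large T antigen under an interferon-inducible promoter. Of 4 mouse 430A arrays of total RNA, 2 were from untreated cells and 2 from cells held for 16 h in medium that the probiotic bacterium Lactobacillus GG (LGG) had conditioned. The array titles give 2 dates, called date 1 and date 2 here, and each date has 1 untreated and 1 treated array. The labels do not name separate cultures. The p-values rest on the spread between these arrays, mostly as shared across genes, and this spread may be technical. Cells in unconditioned medium were not analysed here, so an effect of LGG products and one of the altered medium cannot be told apart.

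Actin monomers join into filaments that are nucleated in branched form by the Arp2/3 complex, crosslinked by alpha-actinin and filamin, stabilised by tropomyosin and cut by cofilin. Non-muscle myosin II slides these filaments past each other once its light chain has been phosphorylated. In the epithelium of the gut, ezrin ties the filament core of each microvillus to the membrane, and a ring of actin and myosin braces the cell junctions. Many genes of this machinery are targets of Srf, which binds a promoter element called the CArG box, and actin monomers hold back the cofactors of Srf.

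Over the 10333 probe sets tested, the log2 intensities of the arrays of 1 group correlated at 0.970 (untreated) and 0.946 (treated), and those of the arrays of 1 date at 0.940 and 0.931. The trimmed mean intensity of an array lay between 500.1 and 513.5. The files gave no detection calls, so a dim probe set has no bound against background, and probe sets with a mean under 101 were not tested. The label of an epithelial cell was checked against 14 epithelial markers, of which 5 reached the intensity needed for a test. Krt8 (431.0 to 653.3 over the 4 arrays), Krt18, Krt19, Tjp1 and Elf3 did, while the defining markers Epcam (6 to 9), Cdh1 (8.7 to 41.8) and Vil1 (1.7 to 10.5) did not. Of the mesenchymal markers 6 of 9 measured reached it, Vim and Col1a1 among them. The summed intensity of these 9 markers was 32977 and 28046 untreated (dates 1 and 2) and 24682 and 23020 treated. That of the 14 epithelial markers was 4312 and 5284 untreated and 4764 and 4701 treated. Of the mesenchymal markers 1, the matrix proteoglycan gene Dcn, fell by 0.91 on the log2 scale (limma, adjusted p = 0.00140). Of 7 smooth muscle markers measured 2 reached the intensity needed for a test, Des and Smtn. The sum of the 7 was 1255 and 1123 untreated and 1339 and 1449 treated. Myh11, the smooth muscle myosin heavy chain gene, lay between 9.1 and 66.2. The leucocyte gene Ptprc lay between 15.4 and 37.2. Of the endothelial and leucocyte markers, only Kdr and Cd68 were bright enough to be tested. Both rose, with log2 changes of 1.29 and 1.06 (limma, adjusted p = 0.00924 and 0.0314). Of the untested ones, Pecam1 (12.1 to 48.0), Tek and Lyz2 were lower in treated cells at both dates, and Itgam was higher at both. Cdh5, Cd3e and Ptprc differed in sign between the dates. Tek went from 149.4 to 36.8 at date 1 and from 96.1 to 51.4 at date 2. The part of any such cells in the results on actin genes was not tested.

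Few genes of the actin cytoskeleton differed between treated and untreated cells by more than the error. Of the 35 member genes tested, 0 rose, 2 fell and 33 did not pass (limma, a fit that held the date as a block, with p adjusted by Benjamini-Hochberg over all probe sets tested and a threshold of 0.05). The 2 that fell were the membrane linker gene Ezr and the tropomyosin gene Tpm1. Over all 6952 genes tested, 3.01% rose and 3.5% fell, so the 5.71% of members that fell is near the share of all genes. The median log2 change of the members was -0.06, or -0.04 at date 1 and -0.08 at date 2, against 0.03 for all genes. The members' changes ran from -0.86 to 0.43, and 33 of the 35 had a 95% interval that lay within 2-fold in both directions, against 79% of all genes. The median SE was 0.17 for the members and 0.23 for all genes. The fit drew each SE mostly from a variance trend on intensity, shared across genes. The members were brighter, with a median intensity of 2811 against 550. Whether they were measured more tightly than other genes of like intensity was not tested. In 12 members, or 34.3%, the treated arrays did not overlap the untreated ones, 8 lower and 4 higher, against 48.5% of all genes. The sign was the same at both dates in 23 members, or 65.7%, against 65.2% of all genes. By limma, 4 members had an unadjusted p under 0.05: Ezr, Tpm1, Myh9 and Pfn1. Without the block 0 of the 35 passed and 2 had an unadjusted p under 0.05, where 0.877% of all genes passed. An exact two-sided permutation test of 2 arrays against 2 can reach no p lower than 0.333.

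**Figure D1:**
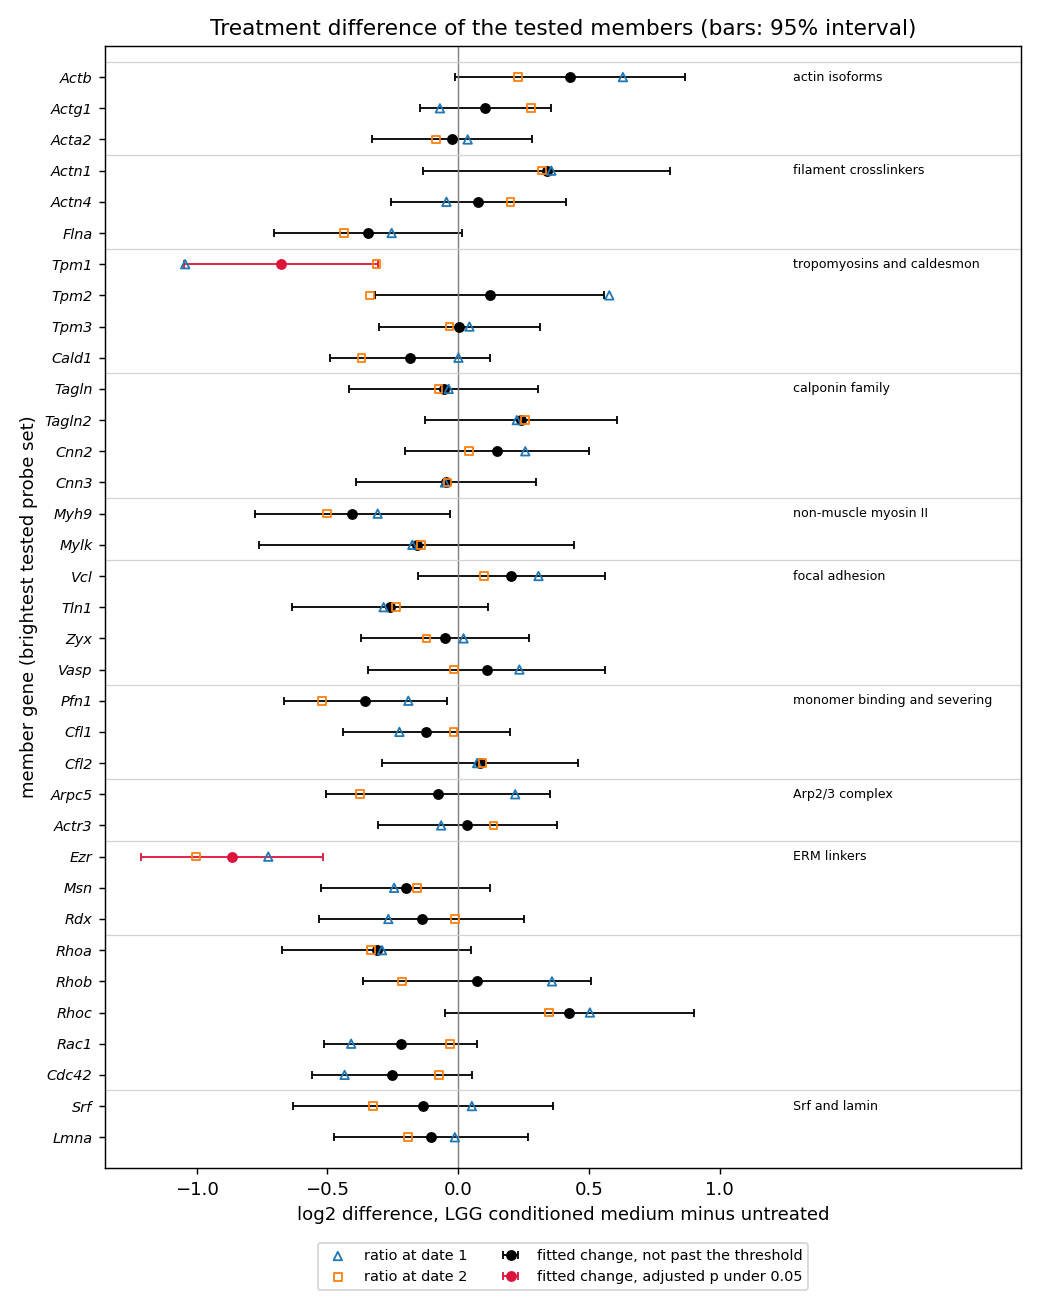
Fitted log2 difference between treated and untreated cells (x axis, dots, with 95% intervals from limma) for the 35 member genes tested (y axis, by role), with the log2 ratio at date 1 (triangles) and date 2 (squares). Red marks the 2 genes with an adjusted p under 0.05, Ezr and Tpm1; 33 of the 35 intervals lie between -1 and 1.

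The linkers of the ERM family, which tie actin filaments to the plasma membrane, held the largest change among the 35 tested members, each taken at its brightest tested probe set. Ezr (ezrin) measured 3919.5 and 4743.9 untreated (dates 1 and 2, the order used for all pairs of values) and 2359 and 2356.2 treated. Both treated arrays lay below both untreated arrays, and they lay close together. The mean went from 4332 ± 583 to 2358 ± 1.98 (SD, n = 2 arrays per group), a 1.82-fold fall, or -0.86 ± 0.16 on the log2 scale (± SE, by limma, adjusted p = 0.00699). The log2 ratio was -0.73 at date 1 and -1.002 at date 2. All log2 values were computed on log2(intensity + 25.2), a scale that understates the change of dim genes. A second probe set of Ezr had values at date 2 only and did not show the fall: it measured 700.9 untreated and 693.2 treated, a log2 ratio of -0.02. The call of Ezr was lost in fits without date as a block (adjusted p = 0.065), with no filter on dim probe sets (0.111) and without an intensity trend in the variance (0.0666). Of the 4 fits that each left out 1 array, also without the block, it passed in 1, without LGG replicate 1, from date 1 (adjusted p = 0.0441).

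Moesin and radixin, the paralogs of ezrin, did not pass. Msn measured 4431.6 and 3814.1 untreated and 3735.4 and 3418.1 treated. These values do not overlap, but the log2 change of -0.20 ± 0.15 had an adjusted p of 0.498 by limma. A second probe set of Msn had a log2 change of -0.62 (adjusted p = 0.114), which came mainly from date 1, with log2 ratios of -1.05 and -0.20. Rdx had a log2 change of -0.14, and its other probe sets, at -0.04 and -0.14, each had opposite signs at the 2 dates.

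The stretch of the Ezr promoter that holds the sequence TGANTCA is shown because Ezr is 1 of the 2 members that passed. This pattern, with any base at N, is a looser form of the consensus of AP-1. The motif was chosen after the change of Ezr was seen. The capitals mark the match, which lies 32 to 26 bases before the RefSeq start site, and the stretch is chr17:6782784-6782834 on the minus strand of GRCm38.p6.
Ezr: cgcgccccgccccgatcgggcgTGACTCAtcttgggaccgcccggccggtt
The motif reads the same on both strands. It was found in 8.97% of 27025 genes with a RefSeq promoter window of 250 bases before to 50 after the start, and in 6 of the 40 members with a window. Besides Ezr these were Actn4, Cald1, Mylk, Zyx and Lmna, with log2 changes of 0.08, -0.18, -0.16, -0.05 and -0.10. None of them passed at the brightest tested probe set. The match is a description of the sequence and no measure of binding.

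Tropomyosins, which lie along the actin filament and decide which proteins reach it, and caldesmon differed among themselves. Tpm1 measured 7326.2 and 5125.3 untreated and 3540 and 4121.9 treated. The groups did not overlap, and the gap was wide at date 1 and narrow at date 2. The mean went from 6226 ± 1556 to 3831 ± 411, a 1.60-fold fall, or -0.68 ± 0.17 on the log2 scale (limma, adjusted p = 0.0318). The log2 ratio of date 1 was -1.04 and that of date 2 was -0.31. Without untreated replicate 1, the untreated array of date 1, the log2 change was -0.42. A second probe set of Tpm1 differed by a like amount at each date, going from 5726.6 and 4893.9 to 4137.1 and 3319.1, with a log2 change of -0.51 (adjusted p = 0.0510). Another, with values at date 2 only, went from 298.5 to 384.9. The adjusted p of Tpm1 was 0.168 without date as a block, 0.228 with no filter, 0.175 without the trend, 0.0631 with median scaling and 0.0506 with quantile normalization, and it passed in 0 of the 4 fits that left out 1 array.

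Of the other genes of this group, Tpm3 had a log2 change of 0.0046, with a 95% interval of -0.30 to 0.31. Tpm2 was higher in treated cells at date 1 (log2 ratio 0.58) and lower at date 2 (-0.34), with a log2 change of 0.12. Its other probe sets, of 4 tested, gave 0.59, 0.07 and 0.01, and none passed. Cald1, which encodes caldesmon, a brake on actomyosin, had a log2 change of -0.18, and its 3 tested probe sets differed in sign (-0.23, -0.18 and 0.27). Tpm4 was measured at date 2 only, at 5922.2 untreated and 6413.4 treated.

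**Figure D2:**
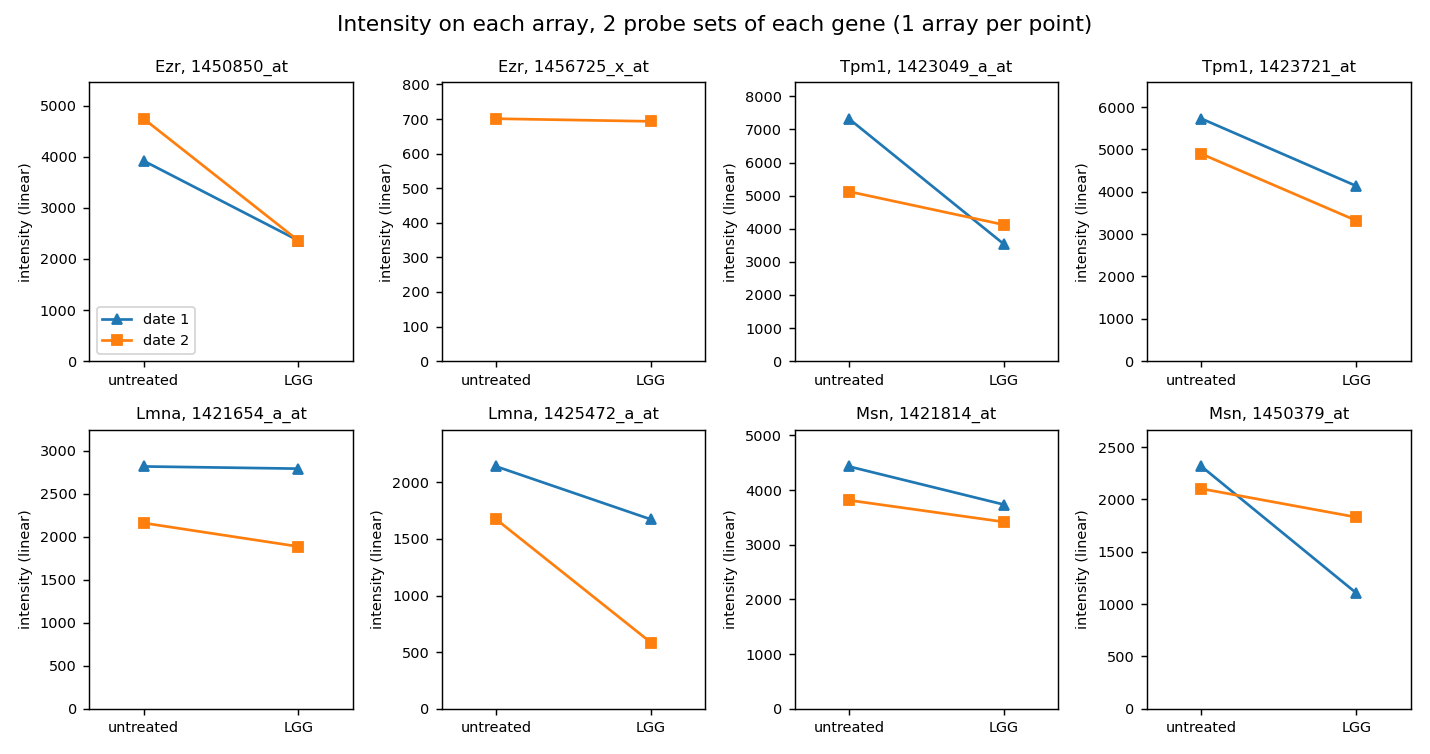
Linear intensity (y axes, each from 0) on the untreated and treated array of date 1 (triangles) and date 2 (squares) for a pair of probe sets each of Ezr, Tpm1, Lmna and Msn, 1 array per point. The Ezr probe set tested fell at both dates while the one measured at date 2 only lay at 700.9 and 693.2, and the Lmna and Msn probe sets differ in which date shows the larger gap.

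None of the actin genes passed. Actb, the cytoplasmic beta-actin, was represented by a probe set that measured 1119.1 and 1051.9 untreated and 1745.3 and 1236.5 treated. The treated arrays lay above the untreated ones, by a log2 change of 0.43 ± 0.20 (limma, adjusted p = 0.256). The control probe sets of Actb gave smaller differences at each date. The array's 3 control probe sets for actin, at the 3′ end, the middle and the 5′ end of the transcript, gave log2 ratios of 0.15, 0.12 and 0.04 (date 1) and 0.14, 0.06 and 0.18 (date 2). The ratio of 3′ to 5′ actin signal, a measure of RNA integrity, was 1.11 and 1.08 untreated and 1.20 and 1.05 treated. A further Actb probe set, with values at date 2 only, went from 12759.7 to 14974, a log2 ratio of 0.23.

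Actg1, the cytoplasmic gamma-actin, measured 12890.2 and 10069 untreated and 12278.6 and 12208.1 treated, so the groups overlapped. Its log2 change was 0.10, with a 95% interval of -0.15 to 0.35, and with quantile normalization the sign turned (-0.0031). Acta2, the smooth muscle alpha-actin, measured 4916.5 and 4515.1 untreated and 5041.6 and 4254.6 treated, with a log2 change of -0.02 and a 95% interval of -0.33 to 0.28. Actg2, the enteric smooth muscle gamma-actin, was too dim to be tested and lay between 46 and 98.2 on the 4 arrays. Actin transcripts are closely alike in sequence, so how far the signal of 1 actin gene holds that of another is uncertain.

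The crosslinkers differed in sign and did not pass. Flna, which encodes the filamin that joins filaments into a network, measured 3274.8 and 2798.4 untreated and 2741 and 2062.5 treated, with a log2 change of -0.35 ± 0.17 (limma, adjusted p = 0.263). Actn1, an alpha-actinin of stress fibres, measured 917.7 and 383.3 untreated and 1181.5 and 484.5 treated. The treated array was higher at each date, but the gap between the dates was larger than that between the groups, and the log2 change was 0.34 ± 0.22 (adjusted p = 0.428). A second probe set of Actn1 gave 0.03, and another, at date 2 only, went from 4575.9 to 4594.8. Actn4, the other non-muscle alpha-actinin, had a log2 change of 0.08.

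Genes of the calponin family, whose proteins bind along actin filaments, had log2 changes between -0.06 and 0.24, and none passed. Tagln, the SM22 gene used as a marker of smooth muscle and myofibroblasts, measured 3134.2 and 2054.3 untreated and 3055.4 and 1948.1 treated. Its log2 change was -0.06, with a 95% interval of -0.42 to 0.31. Tagln2 measured 2219.7 and 2173.2 untreated and 2596.6 and 2600.4 treated. These groups did not overlap, with a log2 change of 0.24 ± 0.17 (limma, adjusted p = 0.472). Cnn2 had a log2 change of 0.15 and Cnn3 of -0.05. Cnn1, the calponin of differentiated smooth muscle, was too dim to be tested. It measured 25.1 and 19.7 untreated and 81.8 and 67.7 treated, so both treated arrays were higher, by log2 ratios of 1.09 and 1.05. In a fit with no filter on dim probe sets its adjusted p was 0.166.

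Genes of non-muscle myosin II did not pass. Myh9, the heavy chain of non-muscle myosin IIA, measured 2915.9 and 2466.6 untreated and 2350.4 and 1734.1 treated. The treated arrays lay below the untreated ones at each date, by log2 ratios of -0.31 and -0.50, and the log2 change was -0.41 ± 0.17 (limma, adjusted p = 0.204). At date 2 its 3 further probe sets gave log2 ratios of -0.29, -0.38 and -0.39. Mylk, the myosin light chain kinase, measured 150.3 and 87.2 untreated and 130.2 and 76.6 treated, with a log2 change of -0.16 and a wide 95% interval of -0.76 to 0.44. The light chain genes were measured at date 2 only. Of the 28 member probe sets of this kind, 12 were higher and 16 lower in treated cells, with log2 ratios from -0.76 to 0.86. Myl9 went from 262.9 to 297.3. Myl6 went from 351 to 657.5, which is the highest of these ratios. A further 2 probe sets list Myl6 together with other genes and were not used, and no probe set carried Myh10 alone.

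Genes of focal adhesions, where filaments meet integrins, gave changes on both sides of 0. Vcl (vinculin) measured 2485.7 and 2740.6 untreated and 3081 and 2936.6 treated, with a log2 change of 0.20 ± 0.17 (limma, adjusted p = 0.544). A second probe set of Vcl had opposite signs at the dates (log2 ratios of -0.38 and 0.65). Tln1, the talin that activates integrins, measured 2766.5 and 2098.4 untreated and 2265.4 and 1774.7 treated, with a log2 change of -0.26 ± 0.17 (adjusted p = 0.438). Zyx (zyxin) had a log2 change of -0.05 and Vasp, which speeds filament growth, of 0.11.

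Among the genes of filament turnover, Pfn1, the profilin that loads monomers for assembly, measured 6456 and 5192.2 untreated and 5652.9 and 3612.3 treated. The treated array was lower at each date although the groups overlapped, and the log2 change was -0.36 ± 0.14 (limma, adjusted p = 0.181). Cfl1, the severing protein cofilin, measured 5285.5 and 3688.6 untreated and 4518.8 and 3641.5 treated, with a log2 change of -0.12. Its muscle-type paralog Cfl2 had a log2 change of 0.08, with its other tested probe set at -0.01. For the Arp2/3 complex, Actr3 had a log2 change of 0.03 and Arpc5 of -0.08, both with opposite signs at the dates. Arpc2, measured at date 2 only, went from 5704.3 to 5047.6. No probe set carried Actr2 or Arpc3 alone, so these subunits were not analysed here.

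Rhoa, Rhob, Rhoc, Rac1 and Cdc42, which encode small GTPases, did not pass. Rhoc measured 511.3 and 639.2 untreated and 735.4 and 819.9 treated, with a log2 change of 0.43 ± 0.22 (limma, adjusted p = 0.303). A second probe set of Rhoc, at date 2 only, gave a log2 ratio of 0.07. Rhoa measured 2551.4 and 3051.2 untreated and 2080.1 and 2417.7 treated, with a log2 change of -0.31 ± 0.17 (adjusted p = 0.324), and its other probe set gave 0.09 at date 2. Neither gene's groups overlapped, and the differences of Rhoa and Rhoc had opposite signs. Rac1, which drives lamellipodia, had a log2 change of -0.22, and Cdc42, which drives filopodia and polarity, of -0.25. In both genes the treated arrays lay below the untreated ones, by log2 ratios of -0.41 and then -0.03 for Rac1 and -0.43 and then -0.07 for Cdc42. Rhob had a log2 change of 0.07, with opposite signs at the dates.

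Srf itself measured 650.6 and 517.1 untreated and 675.5 and 407.8 treated, with a log2 change of -0.14 and a 95% interval of -0.63 to 0.36. Lmna, which encodes the A-type lamins of the nuclear envelope, depended on the probe set. The brighter of its tested probe sets measured 2817.5 and 2160.2 untreated and 2791.9 and 1886.6 treated, with a log2 change of -0.10 (limma, adjusted p = 0.796). The other tested one measured 2139.9 and 1673 untreated and 1672.2 and 584.5 treated, with a log2 change of -0.91 ± 0.25 (adjusted p = 0.0430) and a log2 ratio that was -0.35 at date 1 but -1.48 at date 2. Of the 53 member probe sets tested, 3 passed, 1 each for Ezr, Tpm1 and Lmna, and all 3 fell, against 3.86% that fell of all probe sets tested.

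The CArG box was searched in the RefSeq promoter windows because Srf is a member and these genes are its textbook targets. It was found in 6 of the 40 members with a window, against 1.81% of 27025 genes. The motif reads the same on both strands. Stretches with the matches in capitals are given 5′ to 3′ on the strand of the gene, upstream of the start site, in GRCm38.p6: Actg1 at chr11:120348554-120348607 on the minus strand, Cnn2 at chr10:79988522-79988575 on the plus strand, Myl6 at chr10:128493028-128493081 on the minus strand, Myl9 at chr2:156775281-156775334 on the plus strand, Vcl at chr14:20929149-20929202 on the plus strand and Srf, with 2 matches, at chr17:46556193-46556266 on the minus strand.
Actg1: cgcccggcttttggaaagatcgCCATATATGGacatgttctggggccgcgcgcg
Cnn2: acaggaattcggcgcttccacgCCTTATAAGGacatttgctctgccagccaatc
Myl6: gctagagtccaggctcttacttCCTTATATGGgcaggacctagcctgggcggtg
Myl9: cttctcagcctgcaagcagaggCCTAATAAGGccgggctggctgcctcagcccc
Vcl: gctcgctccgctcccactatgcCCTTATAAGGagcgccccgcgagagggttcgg
Srf: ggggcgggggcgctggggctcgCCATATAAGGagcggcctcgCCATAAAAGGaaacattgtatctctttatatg
None of the tested genes with such a match passed: the log2 changes were 0.10 for Actg1, 0.15 for Cnn2, 0.20 for Vcl and -0.14 for Srf. The windows of Ezr and Tpm1, the members that fell, held no such match, which says nothing of Srf elsewhere at these genes. No promoter window was found for Actb, Actg2, Rac1 and Tagln.

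Other genes of actin regulation were read from 6 lists of 186 genes in all, of which 121 were tested, and 5 of the lists are described. Of these, 9 rose and 6 fell, or 7.44% and 4.96%, beside the 3.01% and 3.5% of all genes, and 106 did not pass. Their median log2 change was -0.02. Of 19 cofactors and known targets of Srf outside the member list, 4 rose, 0 fell and 15 did not pass (median 0.14; 0.32 at date 1 and -0.02 at date 2). The sign was the same at both dates in 9 of the 19. Fos, Egr1, Ier2 and Junb were higher in treated cells at date 1 and lower at date 2. Their log2 ratios were 1.52, 1.09, 0.95 and 0.90, then -0.49, -0.84, -0.13 and -0.0045. Ccn2, a matricellular protein also called CTGF, measured 1845.1 and 3028.3 untreated and 8095.8 and 8252.9 treated (log2 change 1.78 ± 0.17; limma, adjusted p = 0.000186). Its relative Ccn1, or CYR61, measured 4277.6 and 3559.1 untreated and 9277.5 and 8368.2 treated (1.17 ± 0.13, adjusted p = 0.000397). Ankrd1, an ankyrin repeat gene, rose too (1.24, or 0.72 without untreated replicate 2; adjusted p = 0.0163), as did Itga5, the fibronectin receptor subunit (1.10, adjusted p = 0.0128). Without date as a block, Ccn1 and Ccn2 still passed, and Ankrd1 and Itga5 did not (adjusted p = 0.142 and 0.065). Of the members, Acta2, Tagln, Vcl and Actg1 did not pass, with log2 changes of -0.02, -0.06, 0.20 and 0.10. Tpm1 fell (-0.68; limma, adjusted p = 0.0318), and Cnn1, too dim to be tested, was higher in treated cells at both dates.

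Of 35 genes of filament assembly, capping and bundling, 1 rose and 2 fell (median -0.14). Pfn2, the second profilin gene, measured 1450.2 and 1497.1 untreated and 2753.9 and 3458.8 treated (log2 change 1.05 ± 0.18; limma, adjusted p = 0.00382), while the member Pfn1 had a log2 change of -0.36. Eps8, which caps and bundles filaments, fell by 0.90 on the log2 scale (adjusted p = 0.0358). Marcksl1, which crosslinks actin at the membrane, fell by 0.84, by 0.28 without LGG replicate 2 and by 1.40 without LGG replicate 1 (adjusted p = 0.0143 with all arrays). Limk1, the kinase that inactivates cofilin, had a log2 change of 0.74 (adjusted p = 0.102). Of 9 genes of the Arp2/3 complex and its activators, 1 rose and 0 fell (median 0.03): Arpc5l, a paralog of the member Arpc5, had a log2 change of 0.68 (adjusted p = 0.0474). Wasl, an activator of the complex, had 0.49, Wasf1 -0.25 and Nckap1 -0.08.

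Of 29 genes of integrins and focal adhesions, 1 rose, Itga5, and 1 fell (median 0.0036). Parva, a parvin that joins the integrin-linked kinase to actin, measured 1654 and 1061.9 untreated and 687.7 and 459.2 treated (log2 change -1.20 ± 0.21; limma, adjusted p = 0.00467). The integrin gene Itga6 (0.79) and Lims1 (0.50) did not pass. Of 8 genes of the nuclear envelope, 0 rose and 1 fell (median 0.04), Tmpo (-0.65, adjusted p = 0.0341), and Lmnb1 (-0.73), Tor1aip1 (0.68) and Lbr (0.35) did not pass. Of the 9 genes that rose and 6 that fell over these lists, 3 still passed without date as a block: Ccn1, Ccn2 and Cdc42ep1.

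**Figure D3:**
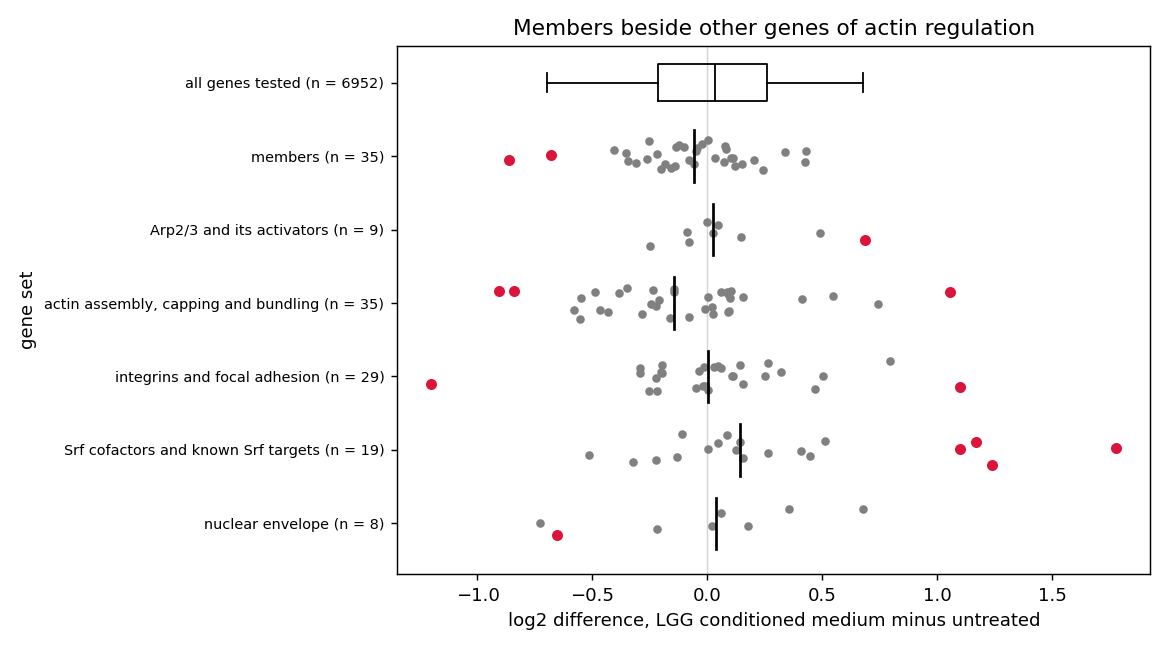
Log2 difference between treated and untreated cells (x axis) for the 35 members and for the tested genes of 5 lists of actin regulation (y axis; 1 dot per gene, red where the adjusted p is under 0.05, vertical bar at the median), with all 6952 genes tested as a box (quartiles and median, whiskers at the 5th and 95th percentile). The members lie between -0.86 and 0.43, and Ccn2 lies farthest to the right at 1.78.

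The members differed more regularly between the dates than between the groups. In the same fit, 30 of the 35 were lower at date 2, or 85.7% against 49.1% of all genes, with a median log2 difference of -0.18 against 0.01. In 24 of them date 2 was lower in both groups, as in 28.7% of all genes. Actn1 was the only member to pass this test, with a log2 difference of -1.22 (limma, adjusted p = 0.0244), where 0.173% of all genes fell. Zyx, Tagln and Mylk had log2 differences of -0.62, -0.62 and -0.63 and did not pass. The members were also brighter, with a median intensity of 2811 against 550 for all genes. The trimmed means were 513.5 (untreated) and 506.1 (treated) at date 1 and 500.1 for both arrays of date 2. Whether the date difference depends on intensity or scaling was not tested. What the dates mark is not given, and culture, hybridisation and scan cannot be told apart.

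**Figure D4:**
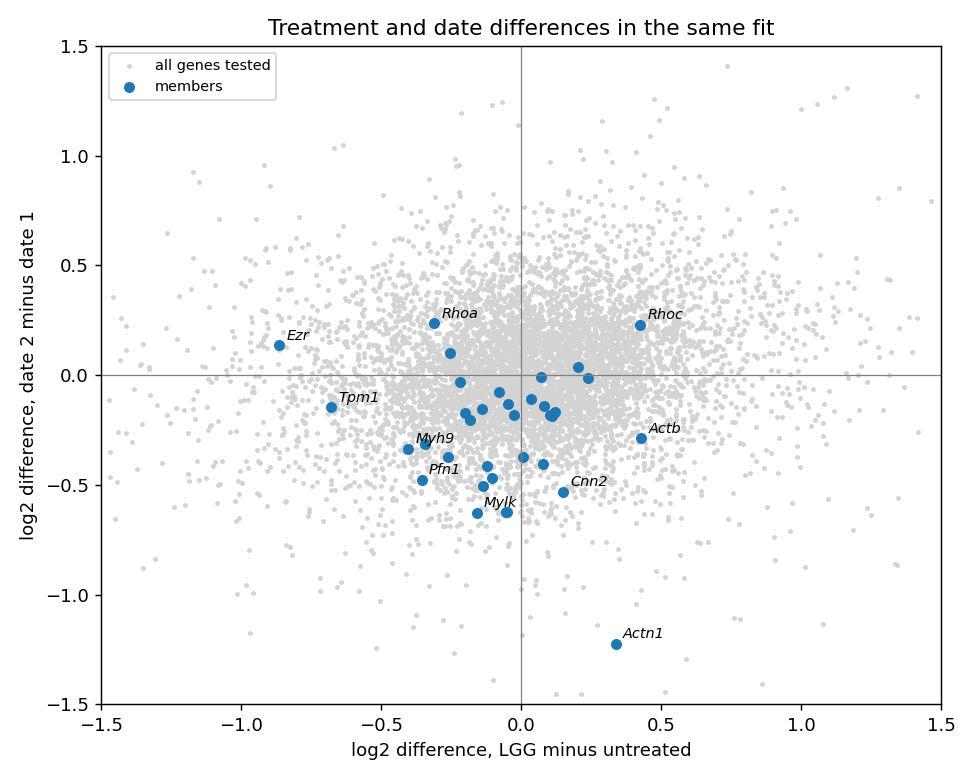
Log2 difference between date 2 and date 1 (y axis) against that between treated and untreated cells (x axis), from the same fit, for the 35 members (blue) and all genes tested (grey; 75 genes lie outside the axes). Of the members 30 lie below the horizontal line, Actn1 farthest, and Ezr and Tpm1 lie farthest to the left.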

How the data were processed

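Linear intensity values of the 4 arrays came in 1 table deposited by the authors. Array software, scaling and filters are not given in the sources used here. Trimmed means (without the lowest and highest 2%) differed little between arrays. For 6307 probe sets the date 1 arrays hold no value, and these were described at date 2 only. The members, lists and tests were chosen with earlier results of these data known.

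Groups and dates came from the array titles, and the shared dates pair the arrays (across probe sets, the difference between dates correlated at 0.27 between the groups). Values were taken as log2(intensity + 25.2), with a pseudocount of 5% of the arrays' trimmed mean (geometric mean over arrays). After 64 control probe sets were set aside, 10333 were bright enough to test (mean of 20% or more of that trimmed mean). They were fitted in limma 3.58.1 (R 4.3.3) by group plus date, with a variance trend on intensity and Benjamini-Hochberg adjustment. The fit had 1 residual and 12.5 prior degrees of freedom, so an SE rests mostly on variance shared across genes. A gene is its brightest tested probe set, named from the platform annotation, and probe sets listed with several genes were not named. Every member is named. Array values are given for members that passed and for the 2 per role with the largest change among those of the same sign at both dates, and others were added after their values were seen. Of each list described, genes that passed are named, with up to 4 in all by the same measure. Fos, Egr1, Ier2 and Junb were added after their values were seen. Alternatives covered the block, pseudocount, scaling, filter, variance trend, probe set rule and each array left out. The number of arrays limits the precision. The sixth list is not reported here. Promoters came from the RefSeq table for GRCm38.p6.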

Additional observations from a re-analysis of the deposited data

How the results depend on the processing

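With date as a block, 0 members rose and 2 fell, and the pairing by date mattered to these calls. Without the block, limma called 0 members that fell, 24 genes that rose and 37 that fell over all genes (1064 at an unadjusted p under 0.05), and 2 and 1 genes of the pathway lists. Median scaling left 1 member that fell, 152 genes that fell and 2 of the pathway lists. Quantile normalization left 1 member that fell and turned the sign of Actg1 (-0.0031). With no filter on dim probe sets limma called 0 members and, of 10782 genes, 0 that rose and 0 that fell, hence 0 and 0 of the pathway lists, with 1525 genes and 4 members at an unadjusted p under 0.05. Without a trend in the variance, 0 members fell, 115 genes rose, 129 fell, and 2 of the pathway lists fell. The causes were not tested. Ezr and Tpm1 both passed with pseudocounts of 1% and 20% and with the filter at 50%. With the median of a gene's tested probe sets in place of the brightest, a value with no test, Msn went from -0.20 to -0.41 and Lmna from -0.10 to -0.51, and the other 33 members moved by less than their SE, with no sign changed.

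Fits that left out 1 array were made without the block. They gave 0 to 1 members that fell and 0 that rose, 0 to 198 genes that rose and 0 to 230 that fell, 0 to 6 and 0 to 8 of the pathway lists, and a member median of -0.20 to 0.11. The 0 counts over all genes came without untreated replicate 1 or 2, where 485 and 533 genes had an unadjusted p under 0.05. In these fits 20 members, none of which had passed, changed sign. The log2 changes ran as follows: Acta2 -0.15 to 0.10, Actg1 -0.074 to 0.28, Actn1 -0.28 to 0.96, Actn4 -0.19 to 0.34, Actr3 -0.071 to 0.14, Arpc5 -0.27 to 0.11, Cald1 -0.38 to 0.0098, Cfl1 -0.38 to 0.14, Cnn2 -0.17 to 0.47, Cnn3 -0.11 to 0.022, Lmna -0.38 to 0.18, Mylk -0.48 to 0.16, Rdx -0.28 to 0.00044, Rhob -0.077 to 0.22, Srf -0.48 to 0.21, Tagln -0.38 to 0.27, Tpm2 -0.19 to 0.43, Tpm3 -0.20 to 0.21, Vasp -0.046 to 0.26 and Zyx -0.40 to 0.30.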
